A study of Mus musculus with 8 samples.

Results

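The antigen receptor loci of the mouse genome were examined for H3K27ac, the acetylated histone H3 that marks promoters and enhancers in use, in CD8+ T cells. The members are the distinct intervals of the 2 deposited peak lists that overlap any of 6 spans of mm10: Tra/Trd (chr14:52400000-54240000), Trb (chr6:40850000-41570000) and Trg (chr13:19170000-19360000) of the T cell receptor, and Igh (chr12:113200000-116010000), Igk (chr6:67500000-70800000) and Igl (chr16:19020000-19270000) of the immunoglobulins. There were 414 members among 334945 intervals of both lists, with 92 of 81522 with DMSO and 322 of 253423 with EnPGC-1. The T cell receptor loci held 106 of them and the immunoglobulin loci 308.

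CD8+ T cells were isolated from spleen and lymph nodes of C57BL/6 mice, activated with antibodies to CD3 and CD28, and cultured for 48 h with EnPGC-1, a compound that the labels place among PIPs, or with the vehicle DMSO. The 8 samples were H3K27ac precipitates (2 per treatment), IgG controls (2, with DMSO) and inputs (1 per treatment), all of the same strain and cell type and all stimulated. The values used were the 2 lists of H3K27ac peaks, 1 per treatment, so the spread between replicates is unknown and no test between treatments was made. Sequencing depth per sample is also unknown here. Over the whole lists, the EnPGC-1 list held 3.11 times as many intervals and 4.00 times as many covered bases as the DMSO list. Bracketed ranges are 95% exact Clopper-Pearson intervals and cover counting error only. In a bulk sample, a mark on few cells and a weak mark on many cannot be told apart.

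Antigen receptor genes are assembled from separate V, D and J segments by V(D)J recombination, which the RAG1 and RAG2 proteins start, and the joined segment is spliced to a constant (C) region. T cells do this at the T cell receptor loci and B cells at the immunoglobulin loci, and in each lineage acetylation of the segments and their enhancers is known to accompany germline transcription and recombination. In mature CD8+ T cells the alpha and beta chain genes are transcribed from rearranged alleles, whereas the immunoglobulin loci are normally not used. RefSeq annotation of these spans held 270 T cell receptor segments (178 V, 4 D, 80 J and 8 C) and 396 immunoglobulin segments (349 V, 20 D, 14 J and 13 C).

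Promoter sequences were at hand for 2 protein-coding genes whose promoter overlapped a member, neither of them a receptor segment. They are shown because they are the members' bases that a reference table holds, as RefSeq promoters of GRCm38.p6, from 250 bases before to 50 after the start, read 5′ to 3′ on the minus strand, with bases inside a listed interval in capitals. The first, of 1700074P13Rik (chr6:40940508-40940807), lies between Trbv1 and Trbv2 and was covered over all 300 bases by an EnPGC-1 interval of 691 bp. The second, of Rpia (chr6:70792126-70792425), the gene of a ribose phosphate isomerase beyond Igkc, was covered over 183 bases. Neither promoter was covered with DMSO.
1700074P13Rik: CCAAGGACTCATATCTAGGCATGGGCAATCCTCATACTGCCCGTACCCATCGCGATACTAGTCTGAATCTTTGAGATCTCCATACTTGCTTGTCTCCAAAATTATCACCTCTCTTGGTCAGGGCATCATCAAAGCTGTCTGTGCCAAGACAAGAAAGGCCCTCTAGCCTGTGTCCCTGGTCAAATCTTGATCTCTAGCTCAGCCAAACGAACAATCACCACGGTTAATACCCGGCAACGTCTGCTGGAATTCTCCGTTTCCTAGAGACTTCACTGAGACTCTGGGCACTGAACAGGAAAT
Rpia: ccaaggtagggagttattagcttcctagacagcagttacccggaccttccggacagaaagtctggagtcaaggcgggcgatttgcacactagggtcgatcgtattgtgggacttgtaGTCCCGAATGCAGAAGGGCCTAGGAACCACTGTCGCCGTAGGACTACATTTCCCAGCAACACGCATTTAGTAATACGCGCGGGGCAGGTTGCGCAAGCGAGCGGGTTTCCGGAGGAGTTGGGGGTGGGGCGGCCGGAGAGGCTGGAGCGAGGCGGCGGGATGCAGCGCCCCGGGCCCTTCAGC
Both were searched on both strands for TGTGGT (RUNX), CAGGTG (E-box), CAGGAAGT (ETS-like) and CACAGTG (the recombination signal heptamer), and neither held any of the 4. Over 32851 RefSeq promoters of the same length, these were found in 16.8%, 20.2%, 3.33% and 6.81%.

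The antigen receptor loci were more sparsely marked than the genome in both lists. Listed intervals covered 0.538% of the T cell receptor loci and 0.434% of the immunoglobulin loci with DMSO, against 1.57% of the genome. With EnPGC-1 they covered 1.51% and 2.02%, against 6.28% of the genome. The genome was thus covered 2.91 times as densely as the T cell receptor loci and 3.61 times as densely as the immunoglobulin loci with DMSO, and 4.15 and 3.10 times with EnPGC-1. Which of the 2 groups was the more covered differed between the lists. Between the lists, covered bases differed by a factor of 2.81 in the T cell receptor loci and of 4.66 in the immunoglobulin loci, EnPGC-1 being the higher. No replicate was at hand to set the spread of these ratios. Inputs were not analysed, so the DNA content of rearranged alleles was not allowed for in these coverages. With the EnPGC-1 list cut to its highest-scoring intervals, as many as the DMSO list holds, the order of the groups turned. Coverage was then 0.725% for T cell receptor and 0.688% for immunoglobulin loci, and the factors were 1.35 and 1.59. The order with DMSO depends on dense stretches described below. Without the densest 100 kb of Tra/Trd, DMSO coverage of the T cell receptor loci was 0.297%. Without the stretch up to the end of Ighm, that of the immunoglobulin loci was 0.293%. The equal-number order was not computed without these stretches.

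The 2 groups of loci were also less covered than regions without protein-coding genes. Of 10 kb bins, 21 of 275 (7.64%) in the T cell receptor loci and 59 of 636 (9.28%) in the immunoglobulin loci held a DMSO interval, beside 21.5% of all bins and 13.8% of bins without a protein-coding gene. An EnPGC-1 interval was held by 62 (22.5%) and 187 (29.4%) of these bins, beside 46.2% of all bins and 37.1% of bins without a protein-coding gene. Bins without such a gene were covered to 0.793% with DMSO and 3.57% with EnPGC-1, and each of the 6 loci lay below both values. By the share of bins with an interval, Trg (15.8%) and Igl (16.0%) with DMSO and Igl with EnPGC-1 (10 of 25 bins) lay above bins without such a gene.

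**Figure D1:**
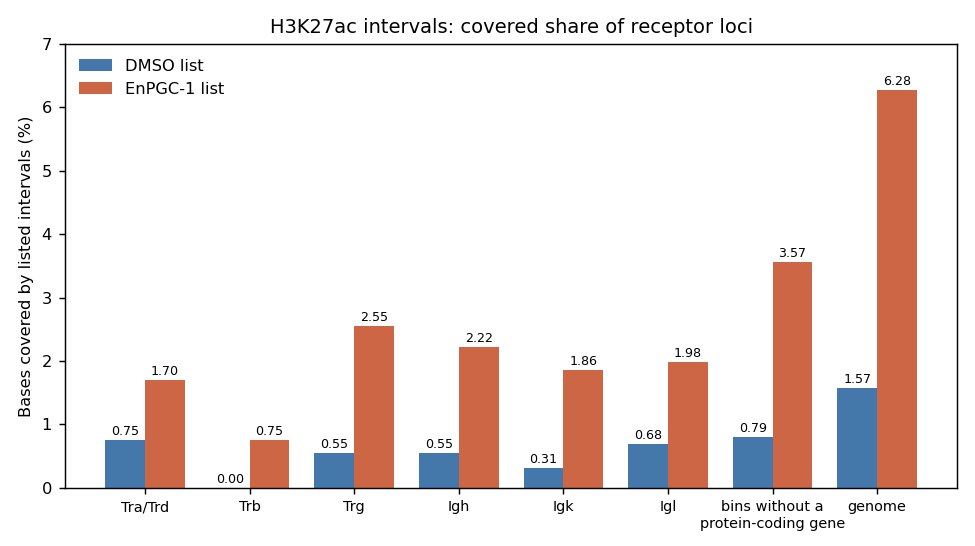
Bars give the percent of bases covered by listed H3K27ac intervals in each of the 6 receptor loci, in 10 kb bins without a protein-coding gene and in the genome, for the DMSO list (blue) and the EnPGC-1 list (orange). Each locus lies below both reference bars of its list, and Trb has no DMSO interval.

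The loci differed among themselves. Tra/Trd, with the alpha and delta chains, had 23 intervals with DMSO (0.748% of the span) and 62 with EnPGC-1 (1.70%). Trb, the beta chain locus, held 0 DMSO and 10 EnPGC-1 intervals, and its coverage with EnPGC-1, 0.747%, was the lowest of the 6 loci. Trg, the gamma chain locus, held 3 and 8 intervals and 0.553% and 2.55%. Among the immunoglobulin loci, the heavy chain locus Igh held 35 and 105 intervals (0.553% and 2.22%), the kappa locus Igk 27 and 126 (0.315% and 1.86%), and the lambda locus Igl 4 and 11 (0.682% and 1.98%). The ratio of covered bases between the lists ran from 2.28 in Tra/Trd through 2.90 in Igl, 4.03 in Igh and 4.61 in Trg to 5.90 in Igk, beside 4.00 for the whole lists, with no value for Trb. Trg and Igl rest on 3 and 4 DMSO intervals.

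**Figure D2:**
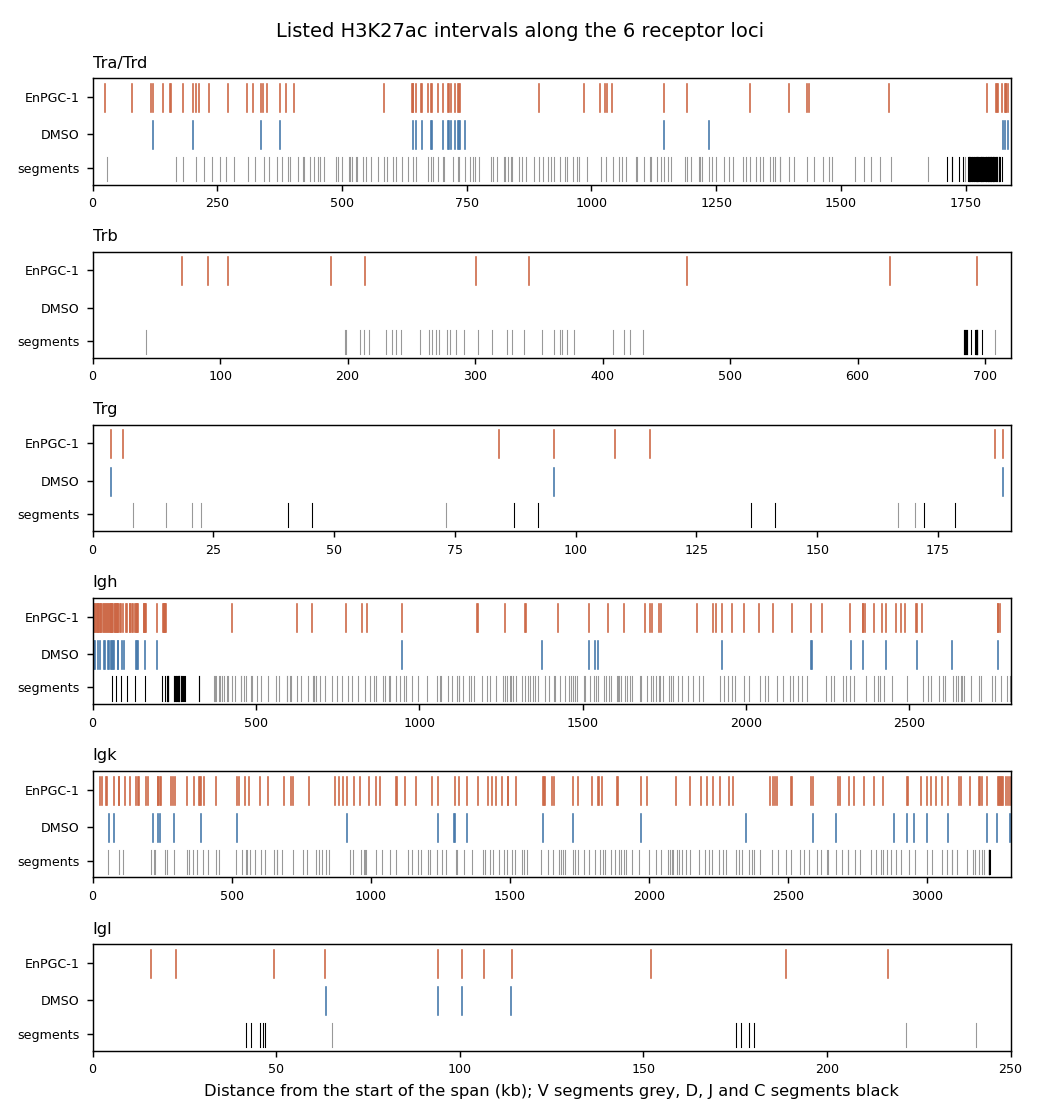
Each panel maps a locus by distance from the start of its span in kb. Ticks mark the centres of EnPGC-1 intervals (orange), DMSO intervals (blue), V segments (grey) and D, J and C segments (black), and intervals crowd at the left end of Igh and in a stretch of Tra/Trd near 700 kb.

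The intervals found in both lists were counted next. In the T cell receptor loci 23 of 26 DMSO intervals overlapped an EnPGC-1 interval (88.5%, 69.8 to 97.6), beside 73.7% of the whole DMSO list. In the immunoglobulin loci 47 of 66 did (71.2%, 58.7 to 81.7). Of EnPGC-1 intervals, 23 of 80 (28.7%, 19.2 to 39.95) and 48 of 242 (19.8%, 15.0 to 25.4) overlapped a DMSO interval, beside 23.1% of the whole EnPGC-1 list. The counting intervals of all 4 shares held the share of the whole list. With equal numbers of intervals, 65.4% of T cell receptor and 21.2% of immunoglobulin DMSO intervals were shared, beside 31.4% of the whole list. So were 48.6% of T cell receptor EnPGC-1 intervals, beside 29.0%. Of the 26 T cell receptor DMSO intervals, 13 lay in a dense 100 kb of Trav segments described below, where the median EnPGC-1 score was 6.58. The equal-number shares were not computed without that stretch, so they are not read as a trait of the T cell receptor loci. At or above the median score, 38.5% of immunoglobulin DMSO intervals were shared, beside 45.5%. Where a DMSO interval overlapped, the widest-overlapping EnPGC-1 interval was the longer in 17 of 23 pairs in the T cell receptor loci and in 34 of 47 in the immunoglobulin loci, with median differences of 70 and 88 bp. Over the whole lists the median width was 431 bp with DMSO and 499 bp with EnPGC-1. The share of such pairs over the whole lists was not computed, so these counts are not read as a trait of the members.

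The median score of the members was close to that of their whole list, at 2.16 beside 2.16 with DMSO and 3.69 beside 3.64 with EnPGC-1. The deposited score is read here as −log10 of the peak caller's q-value and is used only as a rank within a list. The median DMSO member ranked at 83.7% of its list in Tra/Trd, at 71.5% in Igl, where 4 intervals were listed, and at 46.2% in Trg, Igh and Igk. With EnPGC-1 the median rank was 73.0% in Tra/Trd, 53.9% in Igk, 50.7% in Trg, 46.2% in Igl, 41.3% in Igh and 28.8% in Trb. The highest score of any member was 12.4, in the Igk interval chr6:68279196-68280116, 7931 bp from the nearest V segment, while the highest of the whole EnPGC-1 list was 540.7. In the DMSO list the highest member score was 5.77, at Trav9n-1 in Tra/Trd and near Igkv6-13 in Igk, against 178.7 in the whole list. The whole lists hold far more intervals, so a higher maximum there is no measure of weak marking at the members.

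Many of the covered bases of Tra/Trd lay in a stretch of V segments. The densest 100 kb of the locus, chr14:53040000-53139999, was the same in both lists and held 11 V segments, from Trav8d-2 to Trav11n, all of the d and n copies of the repeated Trav array. It was picked for its density, so its coverage is a description. It held 13 DMSO and 18 EnPGC-1 intervals, or 6.93% and 10.3% of its bases. The 15.8 kb beyond Trac, a shorter stretch, were covered more densely, to 19.8% with DMSO and 17.7% with EnPGC-1. Although the V stretch makes up 3.64% of the length of the T cell receptor loci, it held 46.8% of their covered bases with DMSO and 24.8% with EnPGC-1. Covered bases were 1.49 times as many with EnPGC-1 as with DMSO there, against 4.19 times before the stretch and 4.77 times between it and the first Traj segment.

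All 13 DMSO intervals of that stretch, picked as the densest in both lists, overlapped an EnPGC-1 interval, beside 73.7% of the whole DMSO list. Their scores ran from 2.16 to 5.77 with a median of 4.00, and 9 of the 13 ranked above 90% of the DMSO list, out of 16 such intervals among all 92 members. The 18 EnPGC-1 intervals had scores from 2.07 to 10.9, and 14 of them ranked above 90%, out of 38 among all 322 members. A V segment was touched by 5 DMSO and 7 EnPGC-1 intervals, whereas 7 and 9 lay more than 1000 bp from any. The strongest lay on Trav9n-1, at chr14:53101760-53102336 with a score of 5.77 with DMSO and at chr14:53101539-53102453 with a score of 10.9 with EnPGC-1. At Trav11n, 900 bases were covered within 1000 bp of the segment with DMSO and 1240 with EnPGC-1. At Trav8d-2 the DMSO list covered the more, 797 against 627 bases, and so it did at Trav6n-6, 672 against 608. Trav13d-4 had 913 bases with EnPGC-1 and 0 with DMSO.

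This stretch set several of the values given for the T cell receptor loci. Without it, their coverage was 0.297% with DMSO and 1.18% with EnPGC-1, with a ratio of 3.97, and 10 of 13 DMSO intervals (76.9%, 46.2 to 95.0) and 10 of 62 EnPGC-1 intervals (16.1%, 8.02 to 27.7) were shared. The median ranks fell to 46.2% and 41.3% of the lists. With the stretch kept, intervals were also grouped by the nearest Trav segment. The 34 n segments had 9 DMSO and 10 EnPGC-1 intervals, the 40 d segments 7 and 18, and the 56 unmarked segments 4 and 24. The median EnPGC-1 scores of these groups were 6.45, 6.04 and 3.18. All segments of the stretch are d or n copies, so these values do not set the copies apart from the stretch. How reads that fit several copies of the array were placed is not given in the sources used here, and its part in these counts was not tested.

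**Figure D3:**
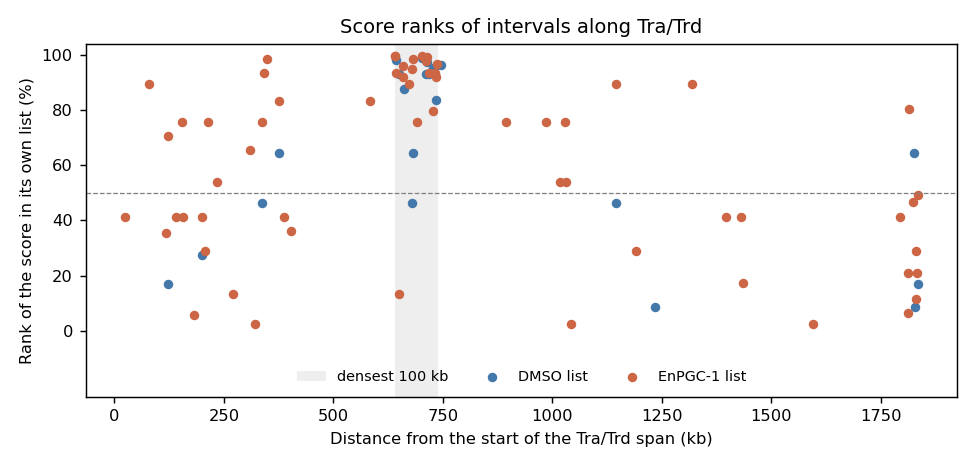
Each point is an interval of Tra/Trd, placed by distance from the start of the span in kb and by the rank of its score within its own list in percent, in blue for the DMSO list and orange for EnPGC-1. In the shaded 100 kb, 9 of 13 DMSO and 14 of 18 EnPGC-1 points lie above 90%.

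At Trac the lists marked different bases. Of the DMSO intervals of the D-J-C part of Tra/Trd, 2 of 3 overlapped an EnPGC-1 interval, beside 73.7% of the whole DMSO list. Trac, the alpha chain constant gene (chr14:54220521-54224198), held an EnPGC-1 interval of 823 bp at chr14:54223078-54223900 with a score of 3.38. The DMSO list had no interval inside Trac, but its widest interval of the locus, 1658 bp at chr14:54224546-54226203 with a score of 2.58, began 348 bp beyond the gene and overlapped no EnPGC-1 interval. In the 15.8 kb beyond Trac, on the side where the alpha chain enhancer is known to lie, 3 DMSO intervals held 3134 bases and 4 EnPGC-1 intervals 2803, a ratio of 0.894. This was the only stretch compared within Tra/Trd or Igh in which the DMSO list covered more bases. The Traj segments had 0 DMSO and 4 EnPGC-1 intervals, which reached 5 of 62 J segments within 1000 bp (Traj6, Traj7, Traj8, Traj26 and Traj27). No interval of either list lay between chr14:53995733 and 54193304, which holds 43 segments from Trdv3 to Traj27 and, among them, Trdc, the delta chain constant gene. Inputs were not analysed here, so how much DNA of this stretch the rearranged alleles keep is unknown.

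Trb had intervals in the EnPGC-1 list alone. The highest-scoring and widest of the 10, 1060 bp at chr6:41542877-41543936 with a score of 4.75, lay over Trbj2-2 to Trbj2-7, joining segments of the beta chain. It accounts for 8 of the 10 Trb segments with an interval within 1000 bp, Trbd2 and the 7 Trbj2 segments, so these 8 share a single interval. The Trbj1 segments, Trbd1 and both constant genes, Trbc1 and Trbc2, had 0 covered bases within 1000 bp in both lists. Of 35 V segments, Trbv5 and Trbv16 had an EnPGC-1 interval within 1000 bp, with 152 and 235 bases.

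In Trg 3 DMSO intervals each overlapped an EnPGC-1 interval, beside 73.7% of the whole DMSO list. They lay 4015 bp from Trgv7, 2008 bp from Trgc3 and inside Stard3nl, a gene of lipid transport at the edge of the span. The widest EnPGC-1 interval, 1329 bp at chr13:19356113-19357441, lay 3770 bp beyond Trgc4 and shared the highest score, 5.30, with the one near Trgc3. None of the 15 annotated Trg segments had an interval of either list within 1000 bp.

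Igh was marked at its constant end and sparsely elsewhere. From the start of the span to the end of Ighm, 21 of the 35 DMSO intervals and 56 of the 105 EnPGC-1 intervals were found. The 56.2 kb before Igha, where a group of B cell enhancers beyond the constant genes is known, were covered to 6.70% with DMSO and 28.4% with EnPGC-1. The 166.5 kb from Igha to Ighm, which hold all 8 heavy chain constant genes, were covered to 3.52% and 14.4%. The 150.2 kb from Ighm to the first V segment, with the J and D segments, held 0 DMSO intervals and 1 EnPGC-1 interval, 1186 bp from Ighm, and the V segments beyond were covered to 0.242% and 0.893%. Between chr12:113424347 and 113625657, 201.3 kb with 33 segments, neither list had an interval.

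Each of the 8 Igh constant genes had an EnPGC-1 interval within 1000 bp, and 3 had a DMSO interval. Among annotated genes of any kind, the same was true of 67.7% with EnPGC-1 and 43.6% with DMSO, with no match for gene length. Igha, which encodes the constant part of IgA, had 883 bases covered with DMSO and 2116 with EnPGC-1. Ighg3 had 340 and 1454, and at Ighg2c 335 bases were covered with DMSO and 288 with EnPGC-1, in intervals that did not overlap. Ighm, which encodes the IgM constant part, had 0 and 2418, Ighe 0 and 2137, Ighg1 0 and 987, Ighd 0 and 948, and Ighg2b 0 and 369. The highest-scoring EnPGC-1 interval of Igh, at chr12:113231499-113232304 with a score of 9.82, lay 23900 bp before Igha and overlapped no DMSO interval. The widest, 1927 bp at chr12:113275169-113277095, lay between Ighe and Ighg2c and overlapped the widest DMSO interval, 865 bp, by 76 bp.

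The marked end of Igh adjoined a densely marked neighbourhood. The 1 Mb before the span was covered to 14.1% with DMSO and 45.7% with EnPGC-1, and the 1 Mb after it to 1.07% and 4.56%. In 50 kb windows the EnPGC-1 coverage went from 41.6% just before the span to 27.4%, 26.6%, 14.9%, 4.95% and 7.59% inside it, and the DMSO coverage from 17.8% to 7.38%, 7.72%, 2.23%, 1.92% and 0%. The part of this neighbourhood in the marking of the constant genes was not tested.

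**Figure D4:**
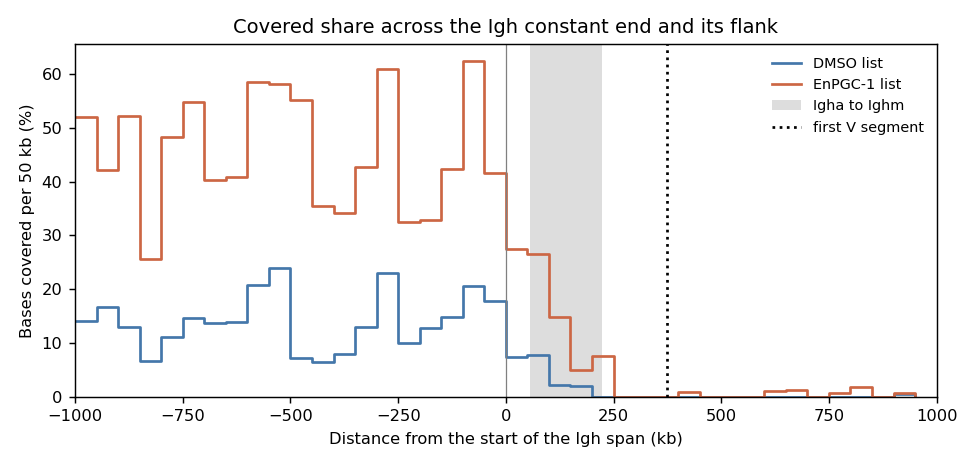
Lines give the percent of bases covered per 50 kb window, by distance in kb from the start of the Igh span, for both lists. Coverage is high left of the span, falls across the constant genes from Igha to Ighm (shaded) and is near 0 before the first V segment (dotted).

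In Igk the densest 100 kb with EnPGC-1, chr6:70700000-70799999, lay at the constant end, with 10 intervals and 5931 covered bases (5.93%). Of these bases, 3303 lay in or within 1000 bp of Rpia, which is not a receptor gene. The 1 Mb beyond the span was covered to 6.45%. With DMSO the densest 100 kb of Igk, with 1.65%, lay among V segments. The kappa and lambda constant genes themselves were not reached. Igkc, the kappa constant gene, the 5 Igkj segments and the 4 annotated lambda constant genes had 0 covered bases within 1000 bp in both lists. The nearest intervals before the Igkj segments overlapped between the lists, at chr6:70716854-70717270 with DMSO and chr6:70716635-70717230 with EnPGC-1, 5292 and 5332 bp from Igkj1. The highest-scoring DMSO interval of Igk, chr6:70453506-70453854 with a score of 5.77, ranked at 99.1% of its list and overlapped no EnPGC-1 interval. The widest EnPGC-1 member of any locus, 2277 bp at chr6:70428859-70431135, lay 3817 bp from Igkv6-14 and overlapped a DMSO interval of 743 bp. In Igl all 4 DMSO intervals lay on the Iglv1 side of the locus and each overlapped an EnPGC-1 interval, beside 73.7% of the whole DMSO list. The highest-scoring EnPGC-1 interval of Igl, 7.05 at chr16:19208624-19208968, lay 8389 bp from Iglj2.

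Variable and constant parts were then compared, with each base given to the part of its nearest annotated segment and bodies of other protein-coding genes set apart. In the immunoglobulin loci the D-J-C parts were covered to 2.00% and the V parts to 0.290% with DMSO, a ratio of 6.90. With EnPGC-1 the values were 8.53% and 1.38%, a ratio of 6.19. In the T cell receptor loci the D-J-C parts were covered to 0.885% and the V parts to 0.488% with DMSO (ratio 1.81), and to 2.47% and 1.35% with EnPGC-1 (ratio 1.83). The EnPGC-1 ratio of the T cell receptor loci was 1.14 with equal numbers of intervals and 1.098 at or above the median score, and their DMSO ratio was 3.08 for widths of at least 500 bp, where the immunoglobulin EnPGC-1 ratio was 10.1. Without the Trav stretch, the T cell receptor V parts were covered to 0.190% and 0.938% and the ratios were 4.66 and 2.63. Without the stretch up to the end of Ighm the immunoglobulin ratios were 1.31 and 1.44. Dense V bases were taken out in the first case and dense D-J-C bases in the second. The direction of each change was thus fixed beforehand, and the order of the groups after removal decides nothing. These ratios rest on single lists and 4 DMSO intervals in the T cell receptor D-J-C parts, against 24 in the immunoglobulin D-J-C parts. Of those 4 intervals 0 touched a segment, and 3134 of their 3432 covered bases lay beyond Trac. The T cell receptor DMSO ratio thus describes bases near the D, J and C segments and not the segments themselves.

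Of the covered D-J-C bases of the immunoglobulin loci, Igh held 9624 of 10839 with DMSO and 40757 of 46229 with EnPGC-1. Its D-J-C part against its V part was 2.79% against 0.240% with DMSO and 11.8% against 0.885% with EnPGC-1, and the EnPGC-1 value was above the 6.28% of the genome. In Igk it was 2.02% against 0.286% and 5.33% against 1.72%, where the D-J-C part reaches across Igkc to the end of the span. In Tra/Trd it was 2.30% against 0.632% and 3.63% against 1.57%. In Igl the order was the other way in both lists, at 0% against 1.503% and 1.66% against 2.36%, and in Trg it turned from 0.252% against 0.591% with DMSO to 2.73% against 1.28% with EnPGC-1. Without the stretch up to the end of Ighm, the immunoglobulin loci as a whole were covered to 0.293% and 1.45%.

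**Figure D5:**
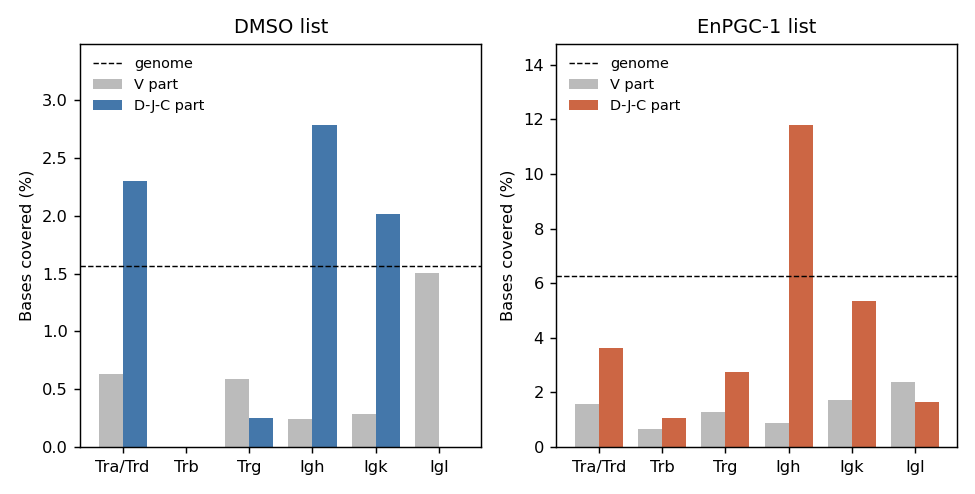
Bars give the percent of bases covered in the V part (grey) and D-J-C part (coloured) of each locus, with the genome as a dashed line and a separate axis range for each list. The D-J-C part of Igh stands above the genome line in both lists, those of Tra/Trd and Igk with DMSO alone, and every V part lies below it.

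Few receptor segments themselves had an interval nearby. Within 1000 bp, 9 of 270 T cell receptor segments (3.33%, 1.54 to 6.23) and 6 of 396 immunoglobulin segments (1.52%, 0.558 to 3.27) had a DMSO interval. The EnPGC-1 list reached 33 (12.2%, 8.56 to 16.7) and 21 (5.30%, 3.31 to 7.99). Of genes of at most 1000 bp outside the loci, 14.0% had a DMSO and 36.6% an EnPGC-1 interval by the same measure. Neighbouring segments share intervals, so these counts are not independent. Among V segments, 8 of 178 T cell receptor and 3 of 349 immunoglobulin segments had a DMSO interval, and 19 and 13 had an EnPGC-1 interval. Pseudogenes made up 1 of those 19 and 4 of those 13. Of D, J and C segments, 1 of 92 T cell receptor and 3 of 47 immunoglobulin segments had a DMSO interval. An EnPGC-1 interval was near 14 and 8 of them. In the T cell receptor loci 16 of 26 DMSO and 53 of 80 EnPGC-1 intervals lay more than 1000 bp from any segment. In the immunoglobulin loci 59 of 66 and 207 of 242 did. The share of each span that lies so far from segments was not computed, so these counts show neither avoidance nor preference of segments.

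Among the V segments with an interval, Trav9n-1, Trav11n, Trav6n-6, Trav8d-2, Trav14d-3-dv8 and Trav13-1 had it in both lists. Trav13-2 and Trav7n-5 had it with DMSO alone, with 403 and 248 bases. Among heavy chain V segments the pseudogene Ighv8-10 had 383 and 386 bases, Ighv1-22 had 398 bases with DMSO alone, and Ighv5-15 and Ighv5-6 had 531 and 406 with EnPGC-1 alone. Among kappa V segments Igkv4-72 had 115 and 190 bases, and Igkv1-136, Igkv1-35 and Igkv15-97 had 717, 473 and 410 with EnPGC-1 alone. Igkv1-136 and Igkv15-97 are annotated as pseudogenes.

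Genes that assemble or accompany the receptors lie outside these spans and were counted for comparison. Of 12 genes of V(D)J recombination, end joining and class switching, 3 had a DMSO interval within 1000 bp of a gene end, beside 41.6% of protein-coding genes, and 8 had an EnPGC-1 interval, beside 72.8%. Rag2 and Hmgb1 had 0 covered bases over the gene and 1000 bp on each side in both lists, and Rag1 had 415 and 509, none at its ends. Dntt, which encodes the polymerase that adds bases at junctions, had 384 and 3957. Of 10 partner chains of the receptors, 5 had a DMSO and 9 an EnPGC-1 interval at a gene end. The CD3 chain gene Cd3e had 918 and 1623 covered bases and the zeta chain gene Cd247 had 4491 and 21547.

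Markers of T cells and of other blood cells were counted in the same way. Of 8 T cell markers, 3 had a DMSO and 7 an EnPGC-1 interval at a gene end, beside 41.6% and 72.8% of protein-coding genes. Of 8 B cell markers, 2 and 7 did, with 26893 and 92175 covered bases in sum over these genes and 1000 bp on each side, most of it in Pax5 (19816 and 56700). The sums for the T cell markers were 6511 and 20807 bases, over genes of other lengths. The B cell marker Ms4a1 had 0 bases in both lists, while Cd79a and Cd79b, the B cell receptor signalling chains, were marked at gene ends in both. Cd8b1, a chain of the CD8 coreceptor, had 558 and 3910 bases, and Cd8a 539 and 640. Blk is in both the B cell and the gamma-delta list. The part of B cells in the marking of the immunoglobulin loci was not tested. Of 3 gamma-delta T cell markers 2 and 3, of 4 myeloid markers 2 and 3, of 2 CD4 T cell markers 2 and 1 and of 2 NK markers 0 and 0 had an interval at a gene end. Each of these lists is short, so the counts are not read as a measure of cell types.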

How the data were processed

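H3K27ac ChIP, IgG and input samples were grouped by the treatment and antibody in the labels. The tools named per the submitters' processing notes were Bowtie 1.1.2, ChIPseeker 11.16.1, MACS2 2.2.2.20160309, Picard 0.118 and Trimmomatic 0.38, with build mm10. The sources used here give no parameters, control or pooling. The authors deposited 1 headerless peak list per treatment, whose score is read as −log10 of a q-value because the lowest scores, 1.31 in both lists, lie just above 1.30, −log10 of 0.05. IgG and input samples were not analysed here, and the values of some genes are not reported here. Nothing says that samples came from separate animals.

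Entries that repeat an interval were combined with their highest score (84538 to 81522 with DMSO, 329623 to 253423 with EnPGC-1). Coordinates are 1-based. Genes and segments came from RefSeq GRCm38.p6, the assembly of mm10, without strand. The genome length was taken as the sum of the last listed base per chromosome. Overlap required 1 bp. Calculations used Python 3.11.15, numpy 2.4.6, pandas 2.3.3 and scipy 1.17.1, and on 200 simulated lists the covered length was wrong in 0.

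No genome sequence was used, so motifs were sought in promoters in place of intervals. The loci, gene lists and tests were chosen with earlier results of these data known. Named were all constant genes, the highest-scoring and widest interval per locus and list, up to 3 V segments per locus and list with most covered bases, other genes in the spans, list members and the longest empty stretches. Other segments and intervals were named after their values were seen, as were both dense stretches, the 1 Mb flanks and the bins without a protein-coding gene. Alternatives were equal numbers of intervals, stricter scores, joining, a minimum width and other overlap, span, part and window rules.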

Additional observations from a re-analysis of the deposited data

How the results depend on the processing

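No paired analysis was possible because each treatment has a single list and no test was made, so no replicate was left out either. Joining intervals within 1000 bp, counting deposited entries, a window of 500 bp, extending the other list by 500 bp and keeping only the stretch from first to last segment moved none of their results beyond 1.5 times or outside the counting interval. In all 22 results, 98 values stayed within these limits and 51 did not. The equal-number setting, with 10 values that stayed and 12 that moved, leaves the DMSO list whole. Its DMSO coverage, interval counts, D-J-C to V ratios and segment counts could thus not move, yet they are among the 98. The tally is therefore no measure of stability. Values below are for T cell receptor, then immunoglobulin loci.

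With only as many EnPGC-1 intervals as the DMSO list holds (scores of 4.21 or more), EnPGC-1 coverage was 0.725% and 0.688%, the reverse of the order in the full list, from 35 and 77 intervals. The ratios of covered bases were 1.35 and 1.59, the shared DMSO intervals 65.4% and 21.2%, the shared EnPGC-1 intervals of the T cell receptor loci 48.6%, the D-J-C to V ratio there 1.14, and the segments reached 20 and 11. This setting was not repeated without the dense Trav stretch. At or above each list's median score, EnPGC-1 coverage was 0.842% and 1.097% from 42 and 127 intervals, with 20 and 13 segments. The T cell receptor D-J-C to V ratio was then 1.098. For immunoglobulins that setting gave a DMSO coverage of 0.258% from 39 intervals and shared percentages of 38.5 (DMSO) and 12.6 (EnPGC-1). A score of at least 2 gave 0.267%, 41 DMSO intervals and 14.1% shared EnPGC-1 intervals there.

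Without intervals under 500 bp, coverage was 0.329% and 0.146% with DMSO, from 11 and 15 intervals, and 0.873% and 1.19% with EnPGC-1, from 31 and 96. The immunoglobulin ratio of covered bases rose to 8.12 and 9.38% of EnPGC-1 intervals were shared there. D-J-C to V ratios were 3.08 (T cell receptor, DMSO) and 10.1 (immunoglobulin, EnPGC-1), and segments reached 5 and 0 with DMSO and 18 and 6 with EnPGC-1. Overlap of at least 50% gave 12.8% for immunoglobulin EnPGC-1 intervals. A window of 2500 bp reached 50 T cell receptor and 49 immunoglobulin segments with EnPGC-1 and 17 immunoglobulin segments with DMSO. The contiguous D-J-C block exists for Trb, Igh and Igk alone and gave 12.2 for T cell receptors with EnPGC-1, which is Trb alone, and no value with DMSO. Leaving out the dense Trav stretch, chosen after the data were seen, gave a T cell receptor coverage of 0.297% and a D-J-C to V ratio of 4.66 with DMSO. Without the stretch up to the end of Ighm, chosen likewise, the immunoglobulin D-J-C to V ratios were 1.31 and 1.44. Except as said, the causes were not tested. Depth per sample is unknown, so a locus without an interval is not shown to lack the mark.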

Other observations

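Non-receptor genes inside the spans were mostly unmarked. The 4 olfactory receptor genes at the start of Tra/Trd and the trypsinogen genes inside Trb (Try4, Try5, Try10, Prss1, Prss2 and Prss3), which are expressed in the nose and the pancreas, had 0 covered bases within 1000 bp in both lists, as did Adam6a and Adam6b in Igh. Gm36448 in Tra/Trd had 0 and 362 and 2210010C04Rik in Trb had 0 and 57. A few genes at the ends of spans were covered. Dad1, a subunit gene of the oligosaccharyltransferase beyond Trac, had 149 bases with DMSO and 1406 with EnPGC-1, Stard3nl beyond Trgc4 had 2017 and 3762, and Rpia beyond Igkc had 0 and 3303. These counts take the whole gene and 1000 bp on each side, and Dad1 and Stard3nl run beyond their spans. The members in the body of Stard3nl were 343 bp with DMSO and 728 bp with EnPGC-1. The 149 bases of Dad1 lie before the gene, in an interval already counted beyond Trac. Within Trb, 1700074P13Rik had 0 and 1126.

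The longest stretches without an interval in either list were 229.4 kb in Igh, from chr12:114148627 to 114378064 with 17 V segments, and 201.3 kb in Igh after Ighm. Tra/Trd had empty stretches of 197.6 kb and 180.4 kb, the latter from chr14:52803192 to 52983579 with 20 V segments from Trav10d to Trav3d-3. Trb had 158.8 kb, without any segment, and 123.2 kb with the 10 V segments from Trbv21 to Trbv30. The longest were 101.5 kb in Igk, 77.5 kb in Trg and 37.4 kb in Igl.

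Of the 22 DMSO members that overlapped no EnPGC-1 interval, or 23.9% beside 26.3% of the whole DMSO list, 9 of 27 lay in Igk, 10 of 35 in Igh and 3 of 23 in Tra/Trd. The 1 Mb flanks of Igl were unequal like those of Igh, at 7.63% and 0.721% with DMSO and 25.0% and 2.85% with EnPGC-1.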
